A study of Mus musculus with 6 samples.

Results

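Fc receptors bind the constant part of antibodies and tie antibody recognition to phagocytosis, cytokine release and antibody transport. Members of this family and its close relatives were followed here in mouse microglia, the resident macrophages of the brain, as a list of 7 genes taken by name: Fcgr1, Fcgr3, Fcgr4, Fcgr2b, Fcer1g, Fcgrt and Fcrls, of 49585 genes counted. All 7 were found in the files, and all 7 passed the filter on low counts. Polyadenylated RNA was sequenced in 6 libraries, 3 labelled WT and 3 labelled IRF8KO, a label for loss of the gene of the transcription factor IRF8. All mice were male and 3 months old, no treatment is stated, and microglia were taken from each brain without enzymes and sorted by flow cytometry. The labels name neither the strain nor the knockout allele, nor whether the deletion reached other cells than microglia. The comparison asks which transcripts differed between microglia with these labels.

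In mouse macrophages, Fcgr1, Fcgr3 and Fcgr4 encode the activating receptors for IgG: Fcgr1 the high-affinity receptor, Fcgr3 a low-affinity receptor and Fcgr4 a receptor of intermediate affinity. They signal through a shared partner, the common gamma chain encoded by Fcer1g, whose cytoplasmic ITAM motif is phosphorylated by Src-family kinases and recruits the kinase Syk. Fcgr2b encodes the inhibitory receptor, which carries an ITIM motif, recruits phosphatases such as SHIP1 and sets a threshold for activation. Fcgrt encodes the heavy chain of FcRn, which pairs with beta-2-microglobulin and returns IgG from endosomes to the cell surface. Fcrls encodes an Fc receptor-like, secreted or membrane scavenger-type protein that is widely used as a marker of microglia.

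The libraries held 3658917 to 11098363 gene counts. Irf8 itself was counted in every library, at 795, 851 and 1403 CPM (counts scaled to library size with TMM factors) in WT replicates 1, 2 and 3 and at 743, 650 and 850 CPM in IRF8KO replicates 1, 2 and 3. Its log2 fold change was −0.44 (SE 0.33; edgeR quasi-likelihood test with Benjamini-Hochberg adjustment over all genes, adjusted p = 0.368), so the label was not checked by this count, which does not tell an intact transcript from one lacking an exon, and every direction below rests on the labels. Apoe took 25.5% to 33.7% of the gene counts in the IRF8KO libraries and at most 0.324% in the WT libraries, so that the scaling method matters for every gene. Microglial markers were present in both groups, with 13 of 13 tested and 6 of them lower in IRF8KO; Sall1 was not counted in IRF8KO, where a count of 0 leaves room for up to 3 counts over the group. WT replicate 3 stood apart from the other WT libraries, and member results are also given without it where that changed a call or moved the value clearly. A lower level in a bulk sample can mean fewer cells of a type or less RNA per cell, which cannot be told apart here.

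Of the 7 genes, 3 rose in IRF8KO: Fcgr4, Fcer1g and Fcrls (edgeR, adjusted p under 0.05; 9.64% of the 11041 tested genes were called higher). With TMM scaling and no offset none fell by edgeR, nor by DESeq2 or limma-voom, while scaling by library size alone or a GC and length offset called Fcgr1 and Fcgr3 lower. Of the members, 0 of those with lower values had an unadjusted p under 0.05 in the TMM-scaled edgeR fit (9.46% of all tested genes were called lower). For 5 of the 7, the values of the groups did not overlap, against 37.9% of all tested genes. Over the whole set of tested genes the middle log2 fold change was −0.11. Among the activating receptors, Fcgr4 rose, while Fcgr1 and Fcgr3 had lower values in IRF8KO that did not pass the test.

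**Figure D1:**
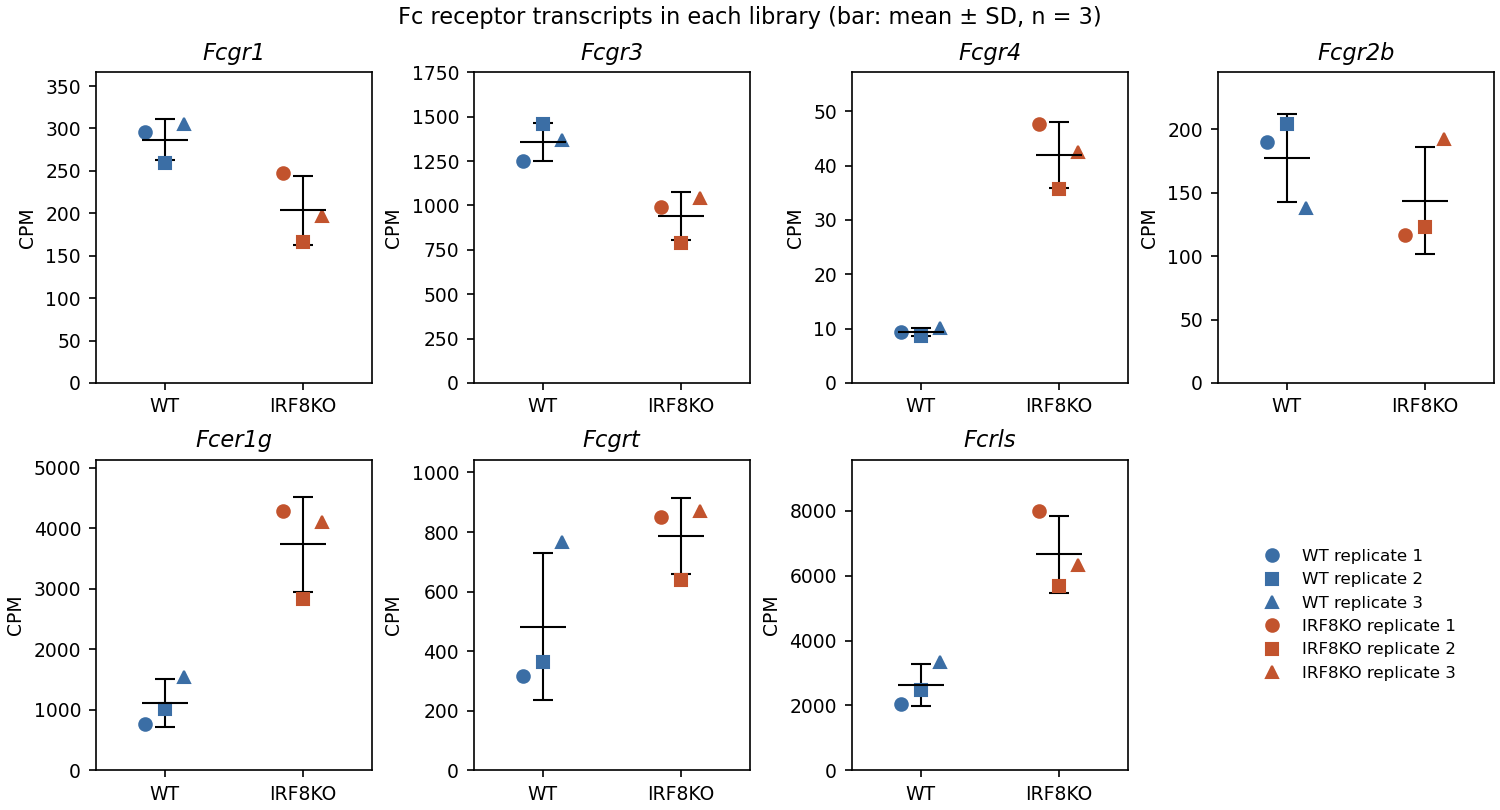
Level of each Fc receptor gene in CPM (linear axis from 0) in 3 WT (blue) and 3 IRF8KO (orange) libraries; symbols are replicates, and bars show the mean and SD (n = 3 each). Fcgr4, Fcer1g and Fcrls sat higher in every IRF8KO library than in any WT library, Fcgr1 and Fcgr3 lower, while Fcgr2b and Fcgrt overlapped.

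Fcgr4 (ENSMUSG00000059089, chromosome 1, 171018920 to 171029761, plus strand, GRCm38) was counted at 9.34, 8.57 and 10.1 CPM in WT replicates 1, 2 and 3 and at 47.7, 35.7 and 42.5 CPM in IRF8KO replicates 1, 2 and 3. Each IRF8KO library held more than 3 times as much as any WT library, and the values within a group lay close together. Its mean rose from 9.32 ± 0.748 to 42.0 ± 6.0 CPM (SD, n = 3), a log2 fold change of 2.17 (95% interval 1.49 to 2.85, SE 0.31; edgeR, adjusted p = 6.9e-04), or 4.50-fold. The call was kept in each of the 22 alternatives, the size falling to 1.42 with a length offset, an offset that removes each library's own trend with exonic length. Fcgr4 is also made by neutrophils and monocytes. Of the 10 neutrophil markers, the summed level was 0 to 0.142 CPM in WT and 2.06 to 359 CPM in IRF8KO, the high end in replicate 2 alone, where S100a8 had 121 CPM and Ngp 79.2 CPM. Its only tested gene, Cxcr2, was counted in each IRF8KO library, at 1.61, 4.13 and 1.74 CPM, and in no WT library (edgeR, adjusted p = 0.0071). Within IRF8KO, 6 of the 7 members had their lowest value in that library, Fcgr4 among them. Without it the log2 fold change of Fcgr4 was 2.28 (edgeR, adjusted p = 0.0018), and the part of these markers in the Fcgr4 result was not tested.

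Fcgr3 (ENSMUSG00000059498, chromosome 1, 171051174 to 171064935, minus strand), the most abundant IgG receptor transcript here, stood at 1249, 1459 and 1369 CPM in the WT libraries and at 990.5, 786 and 1042 CPM in the IRF8KO libraries, in replicate order. All IRF8KO values lay below all WT values, by a modest margin. The means were 1359 ± 105.5 and 939 ± 136 CPM, and the log2 fold change of −0.53 (95% interval −1.18 to 0.11) was not called (edgeR, adjusted p = 0.230). Fcgr3 shares 166 of its 1733 transcript stretches of 50 bases (9.58%) with Fcgr2b, and reads that map to more than 1 place are left out of every gene's count in files of this layout.

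Fcgr1 (ENSMUSG00000015947, chromosome 3, 96282909 to 96293969, minus strand) followed the same pattern at a lower level. It had 296, 259 and 305 CPM in WT and 247, 166 and 197 CPM in IRF8KO, again without overlap but with IRF8KO replicate 1 close to WT replicate 2. The log2 fold change was −0.49 (95% interval −1.10 to 0.11; edgeR, adjusted p = 0.233). For both Fcgr1 and Fcgr3 the outcome depended on the scaling: by library size alone, where the median of all genes moved to −0.61, they were called lower at −1.03 and −1.06 (edgeR, adjusted p = 0.0055 and 0.0067). With the offset for GC content and length they were called lower at −0.77 and −1.04 (edgeR, adjusted p = 0.021 and 0.0048). With a GC offset alone, Fcgr1 was called lower at −0.71 (edgeR, adjusted p = 0.032) and Fcgr3 was not called.

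Fcgr2b (ENSMUSG00000026656, chromosome 1, 170958617 to 170976547, minus strand), the inhibitory receptor, overlapped between the groups. It had 190.3, 204 and 138 CPM in WT and 117, 123 and 192 CPM in IRF8KO. WT replicate 3 fell among the IRF8KO libraries, and IRF8KO replicate 3 among the WT libraries. Its log2 fold change of −0.30 (95% interval −0.96 to 0.35) was not called (edgeR, adjusted p = 0.518) and turned to 0.30 with the GC and length offset, also not called (edgeR, adjusted p = 0.488). Offsets for GC content or length alone gave values of 0.07 and 0.09.

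The 4 IgG-binding chains lie on chromosomes 1 and 3, and Fcgr2b, Fcgr4 and Fcgr3 are next to each other among the tested genes of chromosome 1. Fcgr4 was higher in IRF8KO while both of these neighbours, 42372 bases away on the side of Fcgr2b and 21412 bases away on the side of Fcgr3, were not called. Beyond Fcgr2b, Fcrlb, an intracellular Fc receptor-like protein, fell, and beyond Fcgr3, Cfap126 stood at 1.15 ± 0.701 and 1.06 ± 0.776 CPM. The start regions of the 4 IgG-binding chains are shown because these related genes differed in how they moved. Each sequence runs from 250 bases before to 50 after the RefSeq start (GRCm38.p6), written 5′ to 3′ on the gene's own strand. Capitals mark matches on either strand to the composite site of ETS and IRF factors, a repeat of the interferon-response type, GAGGAA (the core bound by PU.1) or TTCNNNGAA (a STAT site).
Fcgr4 (chr1:171018676-171018975, plus strand): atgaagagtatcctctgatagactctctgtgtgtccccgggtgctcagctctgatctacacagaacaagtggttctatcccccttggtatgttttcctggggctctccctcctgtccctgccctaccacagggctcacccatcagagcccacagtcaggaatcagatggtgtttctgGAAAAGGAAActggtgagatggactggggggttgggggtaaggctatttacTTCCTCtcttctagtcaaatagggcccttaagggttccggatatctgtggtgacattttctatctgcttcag
Fcgr3 (chr1:171059354-171059653, minus strand): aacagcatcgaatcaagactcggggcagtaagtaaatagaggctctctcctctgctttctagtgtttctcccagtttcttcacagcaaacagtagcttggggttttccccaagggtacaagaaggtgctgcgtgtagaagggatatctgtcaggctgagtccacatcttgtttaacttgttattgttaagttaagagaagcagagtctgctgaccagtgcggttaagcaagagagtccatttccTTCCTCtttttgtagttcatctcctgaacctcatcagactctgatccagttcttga
Fcgr1 (chr3:96293920-96294219, minus strand): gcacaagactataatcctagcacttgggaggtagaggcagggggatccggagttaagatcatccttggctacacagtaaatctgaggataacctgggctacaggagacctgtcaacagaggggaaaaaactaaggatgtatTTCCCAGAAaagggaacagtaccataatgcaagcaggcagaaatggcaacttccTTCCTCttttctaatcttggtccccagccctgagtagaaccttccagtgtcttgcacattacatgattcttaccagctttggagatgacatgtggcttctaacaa
Fcgr2b (chr1:170976022-170976321, minus strand): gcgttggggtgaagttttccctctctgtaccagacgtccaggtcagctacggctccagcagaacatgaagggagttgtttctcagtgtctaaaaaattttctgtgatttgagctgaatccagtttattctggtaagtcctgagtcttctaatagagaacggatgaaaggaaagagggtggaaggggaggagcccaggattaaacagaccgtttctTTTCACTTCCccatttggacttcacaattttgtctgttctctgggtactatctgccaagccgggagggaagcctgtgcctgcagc

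Each of the activating receptor genes had GAGGAA on the opposite strand, read as TTCCTC: from base −22 in Fcgr4, −6 in Fcgr3 and −55 in Fcgr1. From another RefSeq start of Fcgr3, the same match lay at −15. The RefSeq starts of Fcgr3 lie inside the gene span given above, not at its outer end. This core was found in 28.3% of 32851 promoters of the same length. In Fcgr1 and Fcgr3 it lay within a run of 14 bases that both hold, ttccttcctctttt, the longest run shared by any pair of the 7 promoters and noticed once the sequences were seen. The ETS-IRF composite was found in Fcgr2b alone among the 7 (opposite strand, from base −35; 2.72% of all promoters), the interferon-response repeat in Fcgr4 alone (from −73; 3.44%) and TTCNNNGAA in Fcgr1 alone (from −109; 8.30%). None of these matches overlapped another. Of the other members, Fcrls had GAGGAA from base −144, and Fcer1g and Fcgrt held none of the 4 patterns.

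Fcer1g (ENSMUSG00000058715, chromosome 1, 171229572 to 171234365, minus strand), the gamma chain on which the activating receptors depend, was counted at 771, 1018 and 1537 CPM in WT and at 4280.1, 2835 and 4097 CPM in IRF8KO. The lowest IRF8KO library lay well above the highest WT library, WT replicate 3. The mean rose from 1109 ± 391 to 3737 ± 787 CPM, with a log2 fold change of 1.75 (95% interval 0.94 to 2.57, SE 0.37; edgeR, adjusted p = 0.0071), or 3.37-fold. Without WT replicate 3 it was 2.09 (edgeR, adjusted p = 1.96e-04), and without IRF8KO replicate 3 it was 1.69 and not called (edgeR, adjusted p = 0.056). Fcer1g has only 874 exonic bases, and an offset for exonic length took the change to 0.80 (edgeR, adjusted p = 0.172), and one for GC content and length to 0.68 (edgeR, adjusted p = 0.066). Tomm40l, the nearest tested gene on the lower-coordinate side, was not called, with 4.81 ± 2.56 CPM in WT and 4.10 ± 0.746 CPM in IRF8KO.

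**Figure D2:**
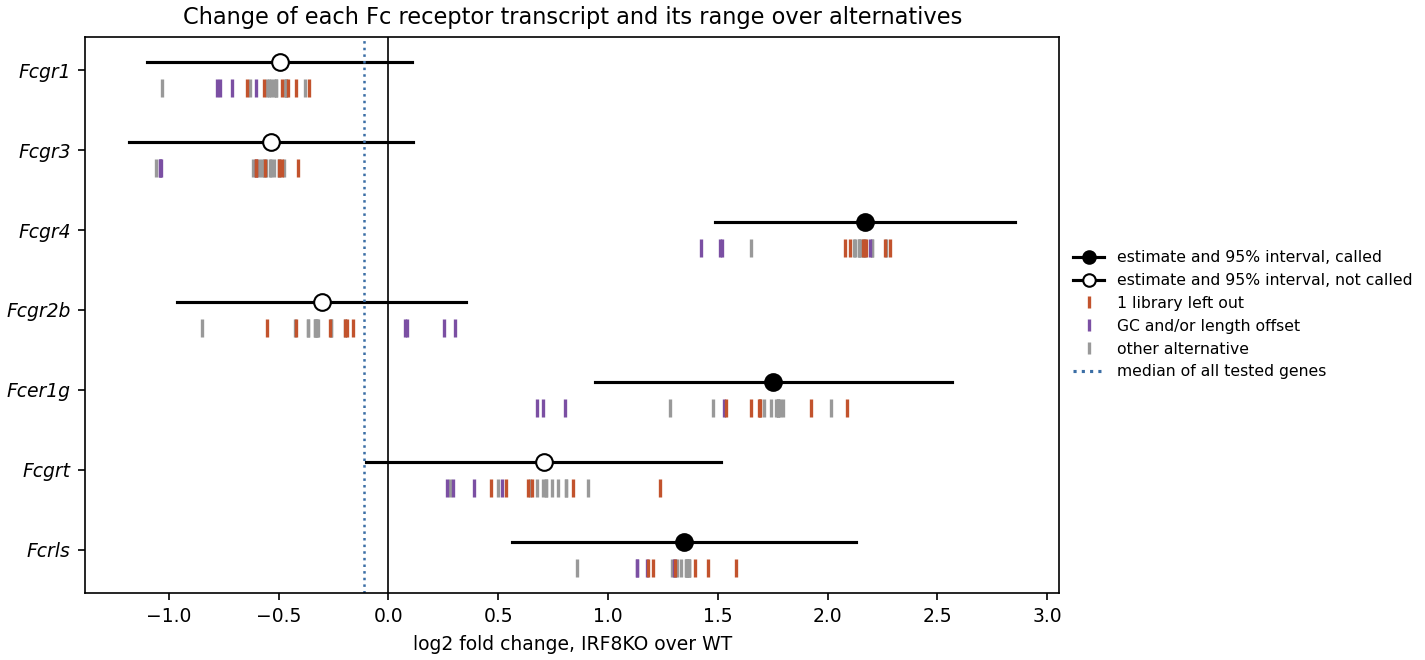
Log2 fold change of each Fc receptor gene, IRF8KO over WT, with its 95% interval (filled where called, adjusted p under 0.05); ticks below each estimate are the values under the 22 alternatives, and the dotted line is the median of all tested genes. Fcgr4 stayed at 1.42 or above in the 22 alternatives, whereas the offset values of Fcer1g fell as low as 0.68 and those of Fcgr2b crossed 0.

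Fcrls (ENSMUSG00000015852, chromosome 3, 87250758 to 87263738, minus strand) had 2048, 2488 and 3330.4 CPM in WT and 7991, 5691.5 and 6323 CPM in IRF8KO, without overlap. It rose from 2622 ± 652 to 6669 ± 1188 CPM, a log2 fold change of 1.35 (95% interval 0.56 to 2.13; edgeR, adjusted p = 0.022), or 2.54-fold. The direction was kept in each alternative, but the call was lost with a length offset (1.13; edgeR, adjusted p = 0.067), without WT replicate 1 or 2 or without IRF8KO replicate 1 or 3, where the log2 fold change was 1.18, 1.30, 1.21 and 1.40 (edgeR, adjusted p = 0.100, 0.105, 0.095 and 0.101). Without WT replicate 3 it was 1.59 (edgeR, adjusted p = 5.5e-04). Its relative Fcrl1, the next tested gene on the higher-coordinate side, 112648 bases away, went the other way: 61.7, 72.6 and 106 CPM in WT and 6.58, 2.42 and 4.45 CPM in IRF8KO, a log2 fold change of −4.19 (SE 0.42; edgeR, adjusted p = 5.3e-05). Fcrl1 encodes an Fc receptor-like protein best known from B cells. On the other side, Cd1d1, an antigen-presenting molecule for lipids, fell from 11.5 ± 2.91 to 3.30 ± 0.428 CPM (log2 fold change −1.79; edgeR, adjusted p = 0.022).

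Fcgrt (ENSMUSG00000003420, chromosome 7, 45092990 to 45103851, minus strand), the FcRn heavy chain, had 316, 364 and 765 CPM in WT and 852, 638 and 869.7 CPM in IRF8KO. WT replicate 3 was more than 2 times as high as the other WT libraries and lay inside the IRF8KO range. Over all libraries the log2 fold change of 0.71 (95% interval −0.10 to 1.51) was not called (edgeR, adjusted p = 0.204), and without WT replicate 3 it was 1.24 and called (edgeR, adjusted p = 0.0012). B2m, the light chain of FcRn and of MHC class I molecules, had 688, 806 and 625 CPM in WT and 586, 777 and 709 CPM in IRF8KO, with full overlap and a log2 fold change of −0.03 (edgeR, adjusted p = 0.955), whose sign changed under 6 alternatives. Rcn3, a calcium-binding protein of the secretory pathway whose gene lies 768 bases from Fcgrt, rose from 4.05 ± 0.734 to 11.1 ± 2.37 CPM (log2 fold change 1.46; edgeR, adjusted p = 0.048).

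Levels of different genes were compared as CPM per kb of exon. In all 6 libraries the order from high to low began with Fcer1g, Fcrls, Fcgr3, Fcgrt and Fcgr1. In WT these levels were 1269 ± 447, 1123 ± 279, 783 ± 60.8, 229 ± 117 and 111 ± 9.33, and the spreads of Fcer1g and Fcrls overlapped. In IRF8KO they were 4276 ± 900, 2857 ± 509, 541 ± 78.1, 374 ± 61.3 and 78.6 ± 15.8. Fcer1g thereby ranked 21 to 24 among 11034 genes in WT and 7 or 8 in IRF8KO, and Fcrls 24 to 29 and 10 to 12. The last places differed: in WT Fcgr2b (30.6 ± 6.02) stood above Fcgr4 (7.42 ± 0.596), and in IRF8KO Fcgr4 (33.4 ± 4.77) stood above Fcgr2b (24.8 ± 7.25) in each library, though by little in replicate 3 (33.8 and 33.2). With the longest transcript of each gene as its length, the mean ratio of Fcgr4 to Fcgr2b in IRF8KO was 0.866, so that this last order rests on the length used.

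**Figure D3:**
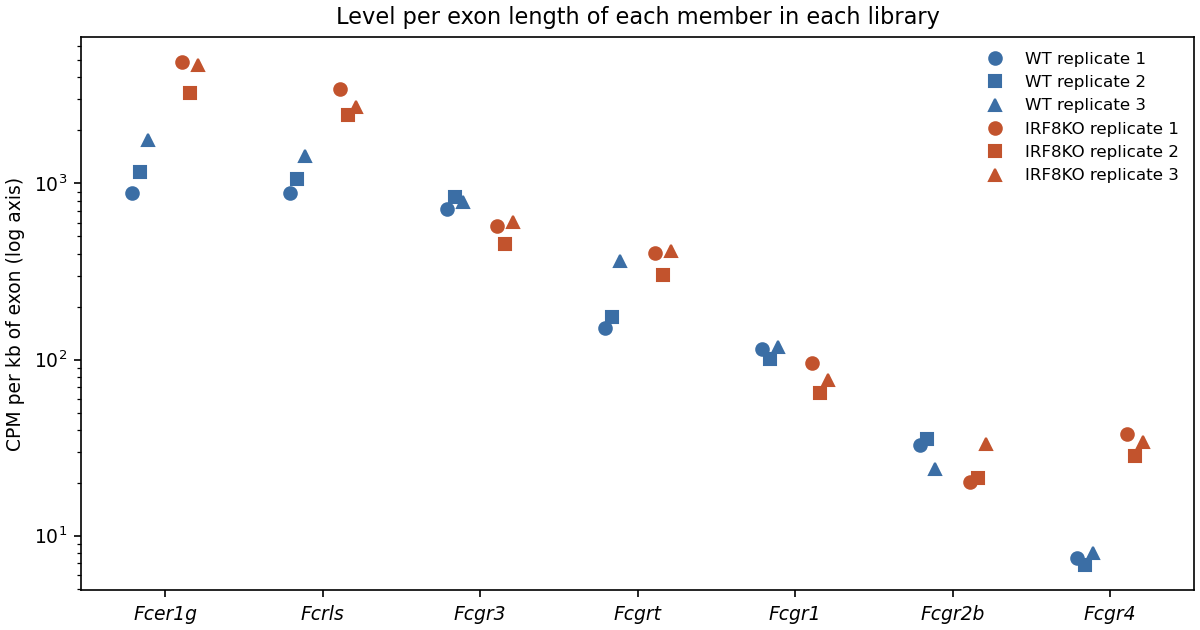
CPM per kb of exon (log axis) of each member in the 3 WT (blue) and 3 IRF8KO (orange) libraries, members ordered by WT level. Fcer1g and Fcrls were highest in both groups, and Fcgr4 moved from below to about the level of Fcgr2b.

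Ratios between members within a library do not depend on how libraries are scaled to each other. Fcer1g, per exonic length, was 1.05, 1.23 and 1.92 times the sum of Fcgr1, Fcgr3 and Fcgr4 in WT replicates 1, 2 and 3 and 6.96, 5.95 and 6.60 times that sum in IRF8KO replicates 1, 2 and 3. The gamma chain transcript thus stood 1.40 ± 0.461 to 1 against its IgG receptor partners in WT and 6.50 ± 0.511 to 1 in IRF8KO (SD, n = 3). Dividing out each library's trend with GC content and length left 1.42 to 1.99 in WT and 5.08 to 5.43 in IRF8KO, still without overlap.

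Within the 4 IgG-binding chains, the share of Fcgr4 per exonic length was 0.851%, 0.694% and 0.854% in WT and 5.24%, 5.02% and 4.55% in IRF8KO. Fcgr3 remained the main chain throughout, at 82.3% to 85.5% in WT and 78.8% to 80.7% in IRF8KO. The shares of Fcgr1 (10.2% to 13.1% and 10.2% to 13.2%) and Fcgr2b (2.54% to 3.76% and 2.78% to 4.47%) overlapped between the groups.

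The ratio of the activating chains Fcgr1, Fcgr3 and Fcgr4 together to inhibitory Fcgr2b was 25.6, 26.9 and 38.4 in WT and 34.9, 25.8 and 21.4 in IRF8KO, with overlap. With the GC and length trend divided out, it was 38.7 to 45.4 in WT and 12.7 to 23.4 in IRF8KO, without overlap, so this ratio depended on the processing. Fcgr4 alone over Fcgr2b was 0.226, 0.194 and 0.336 in WT and 1.88, 1.34 and 1.02 in IRF8KO, and did not overlap with the trend divided out either (0.329 to 0.404 and 0.556 to 1.16). B2m over Fcgrt overlapped between the groups, at 1.99 to 5.41 in WT and 1.68 to 2.98 in IRF8KO, the lowest WT value being that of replicate 3. With the trend divided out it was 3.23 to 4.19 in WT and 2.14 to 2.73 in IRF8KO, without overlap.

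**Figure D4:**
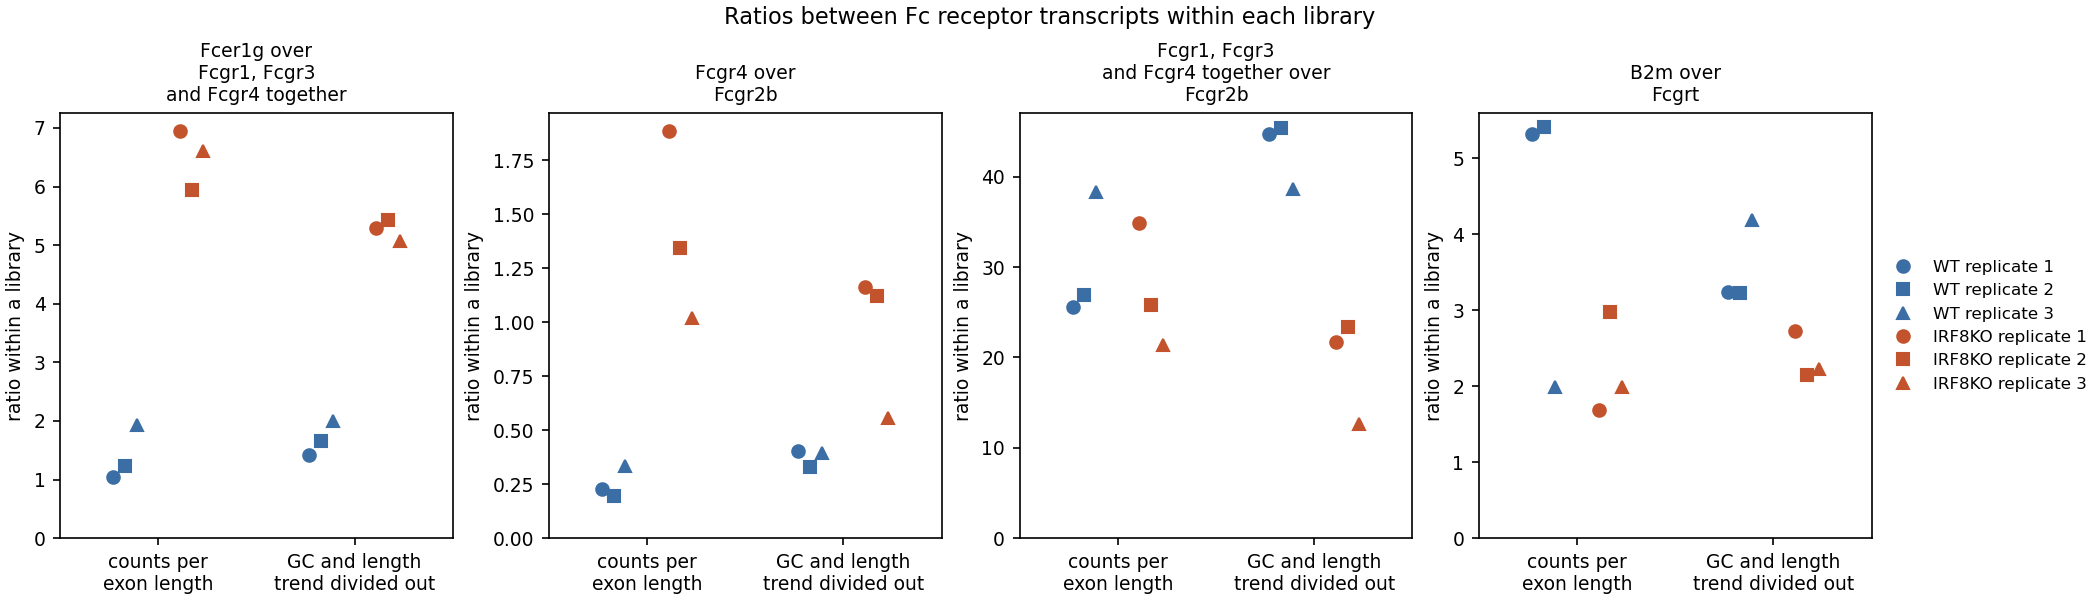
Ratios of length-scaled counts within each library (linear axes from 0), before (left column of each panel) and after (right column) dividing out the library's trend with GC content and length; symbols are libraries, WT blue and IRF8KO orange. Fcer1g over its partner chains separated the groups both ways, whereas the activating-to-inhibitory ratio overlapped before the division and not after.

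Genes around the receptors were read from lists of other Fc-binding proteins, partners of the gamma chain, signalling proteins and immunoglobulins. Of 58 tested genes in these lists, 22 were called, of which 9 rose in IRF8KO and 13 fell (edgeR; 19.1% of all tested genes were called). 

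Among receptors other than the members that bind antibodies or resemble those that do, 3 of 13 were tested. Fcrl1 and Fcrlb fell, and Trim21, a cytosolic antibody receptor, was not called (17.9 ± 6.82 and 10.2 ± 2.30 CPM). Fcrlb had 88 counts in WT and 3 in IRF8KO, summed over libraries, a scaled ratio of 29.4 (exact 95% counting interval 9.75 to 145; edgeR, adjusted p = 0.013). The IgE receptor chain Fcer1a, Fcer2a, the IgM and IgA receptors Fcmr, Fcamr and Pigr, and Fcrla and Fcgbp were at 0 counts throughout.

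Of the other receptors that signal through the gamma chain, 3 were tested and 2 rose. Clec4n (Dectin-2, a receptor for fungal mannans) was at 0.195, 0.354 and 3.03 CPM in WT and at 402, 330.1 and 401 CPM in IRF8KO (log2 fold change 8.34, SE 0.72; edgeR, adjusted p = 1.9e-05). WT replicate 3 held most of its WT counts, and without that library the change was 10.23 (edgeR, adjusted p = 3.6e-07), while it was 7.75 without WT replicate 2. Clec4d, its relative, had 0 counts in WT and 180 in IRF8KO, at least 59.8-fold higher against a floor of 3 counts over the group (edgeR, adjusted p = 9.6e-04). Clec4e was counted in IRF8KO replicate 2 alone, at 0.628 CPM, and Lilra5, at 5.79 to 11.2 CPM in WT and 4.33 to 6.91 CPM in IRF8KO, was not called (log2 fold change −0.58; edgeR, adjusted p = 0.431). Oscar, Gp6, Ncr1 and Pira2 had no count in any library.

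The adaptors and signalling proteins on the activating side had a median log2 fold change of −0.72 over 28 tested genes, against −0.11 for all genes, with 1 called higher and 6 lower. Tyrobp (DAP12), the other ITAM adaptor of myeloid cells, was the 1 that rose, from 1401, 1861 and 3409 CPM in WT to 7641, 5543 and 7731 CPM in IRF8KO (log2 fold change 1.65; edgeR, adjusted p = 0.016). Like Fcer1g it is short, with 667 exonic bases, and its change was 0.59 with a length offset (edgeR, adjusted p = 0.358) and 2.12 without WT replicate 3 (edgeR, adjusted p = 1.7e-04). The kinase Syk, which both adaptors recruit, had 178, 204 and 191 CPM in WT and 191, 176 and 175 CPM in IRF8KO, with overlap (log2 fold change −0.08; edgeR, adjusted p = 0.853). The genes that fell included the exchange factor Vav2 (91.3 ± 16.95 to 29.5 ± 1.66 CPM), the Src-family kinase Lyn (229 ± 81.0 to 86.3 ± 20.7 CPM) and the PI3-kinase subunits Pik3cb, Pik3cd and Pik3r1, with log2 fold changes of −1.63, −1.41, −1.82, −1.06 and −1.91 (edgeR, adjusted p between 0.0019 and 0.034). Vav2 kept its call in all 22 alternatives, while Lyn, Pik3cb, Pik3cd and Pik3r1 lost theirs in 3, 5, 5 and 8. With a length offset Pik3cd was at −0.74 and not called (edgeR, adjusted p = 0.210). Pik3r1 overlapped between the groups, WT replicate 3 (12.5 CPM) lying within the IRF8KO range of 8.19 to 18.7 CPM, and was not called by limma-voom (adjusted p = 0.113). Vav1 was the sixth, at −1.02 (edgeR, adjusted p = 0.044). Its call was lost with RLE size factors (edgeR, adjusted p = 0.063), with a length offset (−0.80; edgeR, adjusted p = 0.167) and in 5 of the 6 fits that left out 1 library.

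On the inhibitory side, 1 of 11 intracellular proteins rose and 2 fell, with a median log2 fold change of −0.39. Ptpn11 (the phosphatase SHP2) rose from 9.39 ± 1.45 to 28.1 ± 6.44 CPM, and Dok1 and Inppl1 (SHIP2) fell with log2 fold changes of −1.33 and −1.63 (edgeR, adjusted p = 0.0094, 0.026 and 0.038). The Inppl1 call was lost in each of the 6 fits that left out 1 library (edgeR, adjusted p between 0.0514 and 0.135), and 20.3% of its exonic length overlaps other genes. Inpp5d (SHIP1), the phosphatase best known from Fcgr2b signalling, was not called (1318 ± 338 and 1003 ± 144 CPM; edgeR, adjusted p = 0.417). Of 10 tested receptors that, like Fcgr2b, carry an ITIM or are grouped with those that do, 5 rose and 1 fell. Clec12a rose from 0.731 ± 0.561 to 90.4 ± 12.7 CPM and Pilra from 15.2 ± 6.58 to 572 ± 68.5 CPM (log2 fold changes 6.97 and 5.23; edgeR, adjusted p = 3.4e-06 and 6.8e-06), and without WT replicate 3 the change of Clec12a was 7.77. Cd300lf, Siglece and Cd300a rose by 2.25, 1.32 and 0.94 on the log2 scale, and Cd22 fell by 1.52 (edgeR, adjusted p between 0.0063 and 0.043). 15.2% of the exonic length of Pilra overlaps another gene.

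Of the immunoglobulin chains listed, only heavy-chain transcripts of IgM and IgD reached the test. Ighm fell from 454, 556 and 757 CPM in WT to 20.5, 13.6 and 18.9 CPM in IRF8KO (log2 fold change −5.06; edgeR, adjusted p = 4.8e-06). Ighd had 198 counts in WT and 1 in IRF8KO, summed over libraries, a scaled ratio of 199 (exact 95% counting interval 35.2 to 7884; edgeR, adjusted p = 3.7e-04). Transcripts of IgG heavy chains were at or near 0: Ighg1, Ighg2b and Ighg3 reached at most 0.496 CPM, in WT libraries only, and Ighg2c, the light chain genes Igkc, Iglc1, Iglc2 and Iglc3, and Jchain had 0 counts in all 6 libraries. Cd79b, a chain of the B-cell receptor and the only tested gene of the B-cell marker list, fell with Ighm, Ighd and Fcrl1: it had 65.0, 61.2 and 102 CPM in WT and 20.2, 15.4 and 15.8 CPM in IRF8KO (log2 fold change −2.15; edgeR, adjusted p = 7.2e-04). That list summed to 61.3 to 102 CPM in WT and 15.8 to 20.4 CPM in IRF8KO, nearly all of it Cd79b, with the defining markers Ms4a1, Pax5 and Blk at 0 counts in every library. Its part in these falls was not tested.

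**Figure D5:**
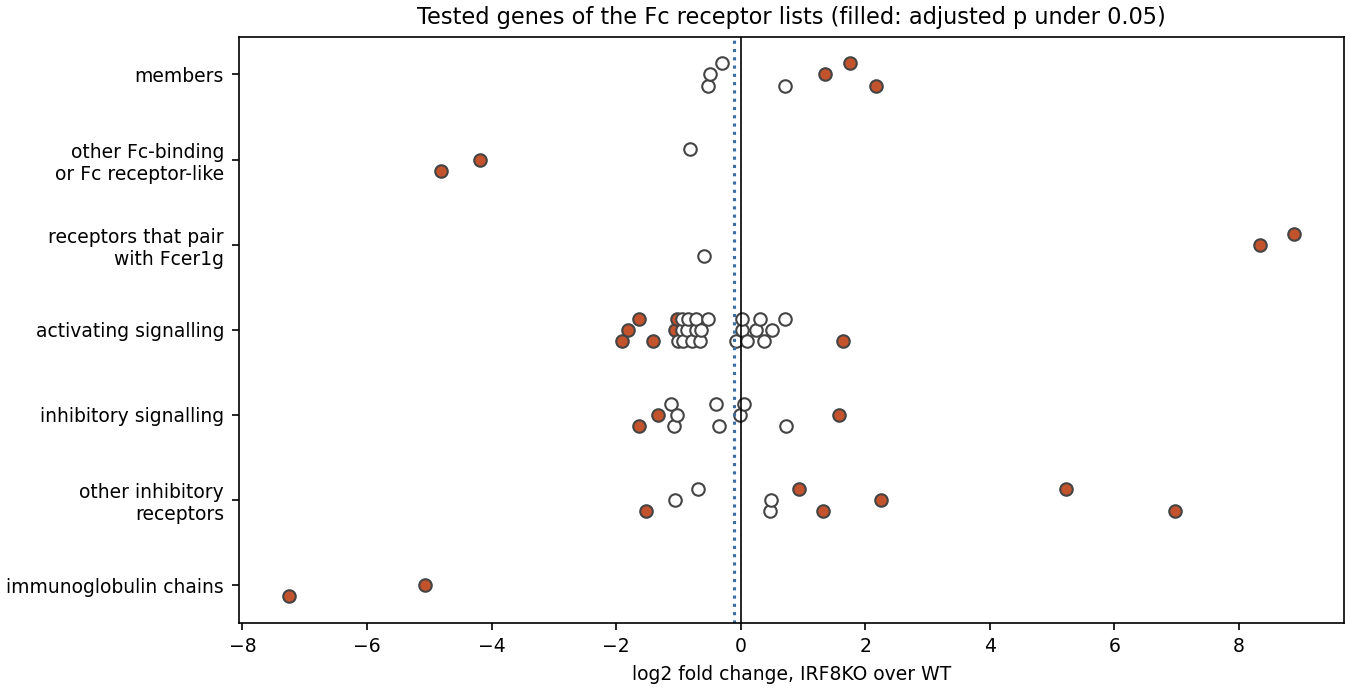
Log2 fold change, IRF8KO over WT, of each tested gene of the Fc receptor lists (rows); filled points passed an adjusted p under 0.05, and the dotted line is the median of all tested genes. Changes of the members lay between −0.53 and 2.17; the outermost points, Clec4d and Ighd, rest on 0 or 1 count in the lower group, so their positions depend on the prior count.

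Of these 22 calls, 8 were kept in each of the 6 fits that left out 1 library: Fcrl1, Clec4d, Clec4n, Vav2, Clec12a, Pilra, Ighm and Ighd. The other 14 were lost in at least 1 such fit, 13 of them without IRF8KO replicate 3 (edgeR, adjusted p between 0.051 and 0.223 there) and Fcrlb without IRF8KO replicate 1 (0.055). Leaving out WT replicate 1, 2 or 3 ended 8, 10 and 2 calls (the last of these Inppl1 at −1.23 and Cd22 at −1.18; edgeR, adjusted p = 0.0715 and 0.0635), and leaving out IRF8KO replicate 1 or 2 ended 10 and 6.

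Markers of other cells moved with some of these results. All 8 tested markers of border-associated macrophages (of 10) rose, the summed level of the list being 612 to 835 CPM in WT and 3819 to 5036 CPM in IRF8KO. Nearly all of the WT sum was Stab1, at 602, 651 and 823 CPM in WT and 2308, 1767 and 1775 CPM in IRF8KO. Pf4 was at 1.79 ± 0.935 CPM in WT and 1881 ± 321 CPM in IRF8KO, Ms4a7 at 0.923 ± 0.268 and 413 ± 147 CPM, Siglec1 at 2.005 ± 0.677 and 118 ± 6.45 CPM, and Mrc1 at 3.12 ± 0.543 and 39.3 ± 19.0 CPM. Cd163 was counted in each IRF8KO library, at 8.67, 12.5 and 7.48 CPM, and in no WT library, and Lyve1 and Cd209f were counted in none of the 6. The monocyte list summed to 0.827 to 2.97 CPM in WT and 2.49 to 47.3 CPM in IRF8KO, the high end in replicate 2 alone, where Chil3 had 34.6 CPM against 0 in the other IRF8KO libraries. Its only tested gene, Fn1, was higher in every IRF8KO library, at 0, 0.0708 and 0.138 CPM in WT and 4.01, 3.77 and 1.52 CPM in IRF8KO (edgeR, adjusted p = 0.0067). Ccr2 and Ms4a4c of the monocyte list, not tested, had lower means in IRF8KO (0.348 to 0.126 and 1.09 to 0.294 CPM). The dendritic cell list summed to 5.45 to 6.62 CPM in WT and 22.2 to 29.7 CPM in IRF8KO, with its tested gene Zbtb46 higher (log2 fold change 2.49; edgeR, adjusted p = 0.0014) and the defining markers Clec9a and Cd209a at 0 counts. That rise was in Zbtb46 alone, as Flt3 and Xcr1, not tested, had lower means in IRF8KO (0.926 to 0.742 and 0.360 to 0.143 CPM). Markers of other brain and blood cells also moved: the astrocyte list summed to 8.50 to 90.0 CPM in WT and 111 to 189 CPM in IRF8KO (3 of 4 tested genes called higher) and the neuron list to 0.637 to 9.37 and 21.4 to 28.0 CPM (2 of 4 called higher). The endothelial list summed to 18.3 to 21.8 CPM in WT and 2.89 to 9.87 CPM in IRF8KO (its 1 tested gene, Pecam1, called lower), the erythroid list to 0 to 50.7 and 47.4 to 393 CPM (0 of 3 called) and the oligodendrocyte list to 283 to 693 and 470.4 to 679 CPM (1 of 4, Cnp, called lower). Pecam1 made up most of the endothelial sum in WT. Flt1 of that list went the other way, from 0 CPM in WT to 0.803, 7.90 and 6.40 CPM in IRF8KO. Mbp of the oligodendrocyte list had higher values in IRF8KO, 437 ± 95.2 against 152 ± 116 CPM (not called; edgeR, adjusted p = 0.056). The summed levels of the lists of T and NK cells and of mast cells were at most 2.33 and 1.12 CPM. The part of any of these transcripts in the rise of Fcgr4, Fcer1g, Fcrls and Clec4n was not tested.

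The genes whose profile over the 6 libraries was closest to each member were found by the root mean square difference of log2 CPM, each gene centred on its own mean, among 6032 named genes with at least 10 CPM. For Fcgr4 they were Tmem106a and Anxa5 (0.0749 and 0.0966 log2 units), for Fcer1g Eif4ebp1 and Bst2 (0.0704 and 0.0772) and for Fcrls Litaf and Cyb5r1 (0.0749 and 0.0870). Tmem106a and Anxa5 had log2 fold changes of 2.07 and 2.24, next to 2.17 for Fcgr4. The closest to Fcgrt was Rabac1 (0.0370) and then Cyb561d2 (0.0475). Those of the genes not called with lower values were Kat5 and Nelfa for Fcgr1 (0.0596 and 0.0615), Hadhb and Decr2 for Fcgr3 (0.0641 and 0.0680) and Sap18 and Psma7 for Fcgr2b (0.0835 and 0.0881). These profiles are over 6 libraries in 2 groups and describe likeness only. The remaining neighbours by position were those of Fcgr1, Hist2h4 and Gm15441, and Gm45552 beside Fcgrt, none of them called and each under 5 CPM in mean.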

How the data were processed

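RNA of sorted microglia was copied with SMART-Seq v4 (15 cycles of amplification) and tagged with Nextera XT, per the labels' protocols; such libraries carry neither strand information nor molecular identifiers, so counting intervals cover counting error only. The authors deposited raw counts per gene in the layout of STAR: 4 summary lines, then a count that ignores strand, used here, and 2 by strand. STAR 2.5.2b, Picard 2.17.11, featureCounts and the build mm10 are named in the submitters' processing notes; the annotation release is not given in the sources used here. Identifiers were matched to GENCODE M21 (GRCm38; 49326 of 49585 matched); Pira6 and Lilrb4a of the lists were not matched to the files. Promoters were from RefSeq (GRCm38.p6) and found for 7 of 7 members.

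For the test, edgeR 4.0.16 (R 4.3.3) was run on the counts (minimum count 10, TMM scaling, quasi-likelihood F test, genotype alone, Benjamini-Hochberg over 11041 genes); a gene was called at an adjusted p under 0.05. CPM were computed on the TMM-scaled library size; log2 CPM had a prior count of 2. DESeq2 1.42.0 and limma 3.58.1 (voom) were among the alternatives. Data were simulated with 1 common dispersion (0.181) for all 10537 genes, of which 92 changed 2-fold and 98 changed 4-fold. There 42.9% of 4-fold and 2.17% of 2-fold changes were called. The real fit let the spread differ between genes and called many more, so these shares do not measure its power. A gene not called may still differ by 2-fold. The labels say that microglia came from each brain and name no batch; p-values measure the spread between these libraries. The members and lists were chosen with earlier results of these data known. Genes named were all members, Irf8, up to 5 called genes of a list in each direction with the smallest p, lists of at most 5 counted genes whole, the 2 closest profiles and the nearest tested neighbour on each side; Vav1, the markers of other cells, Syk, Inpp5d and genes at 0 were named besides. A few single genes that this rule would name are not reported here.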

Additional observations from a re-analysis of the deposited data

How the results depend on the processing

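Of the 7 genes, 3 were called in the reported fit, 5 by library size alone (Fcgr1 and Fcgr3 lower besides), 1 with a length offset and 1 to 4 when 1 library was left out. Over all genes the count of 2109 ranged from 910 to 4003 without 1 library, and the 22 pathway calls from 9 to 32. By library size alone 25.4% of calls were higher, against 50.5%. Log2 fold changes that crossed the threshold or zero were, with the GC and length offset, −0.77 for Fcgr1, −1.04 for Fcgr3, 0.68 for Fcer1g and 0.30 for Fcgr2b, and by library size alone −1.03 for Fcgr1 and −1.06 for Fcgr3. With library size alone and Apoe left out, Fcgrt was called at 0.77. Offsets for GC or length alone were chosen after the data were seen: GC gave −0.71 for Fcgr1 (called) and 0.073 for Fcgr2b, and length gave 0.086 for Fcgr2b, 0.80 for Fcer1g and 1.13 for Fcrls (not called). The cause of these shifts was not tested. Without 1 library Fcgr1 ranged from −0.65 to −0.36, Fcgr3 from −0.60 to −0.41, Fcgr2b from −0.55 to −0.16, Fcgr4 from 2.08 to 2.28, Fcer1g from 1.54 to 2.09, Fcgrt from 0.47 to 1.24 and Fcrls from 1.18 to 1.59.

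Samples with the same replicate number did not deviate together (correlations −0.26, 0.328 and 0.114 for numbers 1, 2 and 3), so the numbers were not taken to pair samples. With the replicate number as a block, the same number of members, 3, and 2353 genes in all were called, while Vav1 and Cd300a were not; with the block and the GC and length offset, the values were −0.78 for Fcgr1, −1.04 for Fcgr3, 0.25 for Fcgr2b and 0.71 for Fcer1g.

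With the longest transcript as length, mean ratios in WT and IRF8KO were 2.30 and 2.05 for Fcgr1 over Fcgr2b, 0.154 and 0.866 for Fcgr4 over Fcgr2b, and 23.2 (WT) for the activating chains together. With the trend divided out (chosen after the data were seen) they were 4.96 and 2.51 for Fcgr1 (4.03 to 6.03 and 1.51 to 3.10, without overlap, whereas the undivided values overlapped), 37.6 and 15.8 for Fcgr3, 0.376 and 0.946 for Fcgr4 and 42.9 and 19.3 for the activating chains over Fcgr2b, and 5.27 (IRF8KO) for Fcer1g over its partners. B2m turned positive with DESeq2 (0.0080), RLE size factors (0.0080), the first strand column (0.13), the GC offset (0.57) and without WT replicate 2 (0.067) or IRF8KO replicate 1 (0.087; range without 1 library −0.116 to 0.087), and Lilra5 with the GC offset (0.047). Among 26 other named genes, 484 of 567 values kept direction and side. The shallowest library, WT replicate 1, held 48 counts of Fcgr4; thinning all libraries to its depth left the 3 members called.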

Other observations

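The kit does not mark strand, yet the columns that count 1 strand did not hold equal shares for every member. For Fcer1g the first strand column held 40.5%, 43.4% and 46.3% of its stranded counts in WT replicates 1, 2 and 3 and 52.4%, 51.8% and 51.8% in IRF8KO replicates 1, 2 and 3. For Fcgrt these shares were 40.6%, 43.5% and 46.8% in WT and 50.4%, 49.1% and 51.2% in IRF8KO, without overlap as well. In all, the shares did not overlap for 6 of the 7 members, against 22.2% of 10174 tested genes with stranded counts in every library. Fcgr1, Fcgr3 and Fcrls lay the other way: 53.9% to 56.0% in WT and 48.2% to 50.2% in IRF8KO for Fcgr1, 50.9% to 55.9% and 48.4% to 49.5% for Fcgr3, and 50.5% to 52.9% and 49.5% to 50.04% for Fcrls. The shares of Fcgr4 overlapped, at 46.3% to 60.4% in WT and 47.4% to 53.2% in IRF8KO, and those of Fcgr2b nearly touched, at 45.6% to 50.41% and 50.44% to 51.6%. Over all genes the shares lay between 49.8% and 50.3%. Fits on either strand column alone called the same number of members, 3.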
